A study of Mus musculus with 6 samples.

Results

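The regions described here are stretches of intergenic DNA that RUNX1 occupied in mouse granulosa cells 6 h after human chorionic gonadotropin (hCG) and that were in neither peak list before it. RUNX1 binding was measured by chromatin immunoprecipitation and sequencing (ChIP-seq), and each list holds the peaks of 1 library. Overlapping peaks of the 2 libraries at 6 h were merged, and 17190 merged regions held a peak of both. A member had to overlap no peak of either 0 h library and be under 2000 bp wide. Its summit had to lie outside every annotated gene, over 1 kb from every gene end and at most 50 kb from the nearest end of a protein-coding gene. Of the 17190 replicated regions 1580 met this rule, or 9.19% (95% CI 8.76 to 9.63), which is 11.0% of the 14355 without a 0 h peak. The number was 52 when all lists were shortened to an equal number of peaks, and 3308 without 6 h replicate 1. The share without a 0 h peak over all replicated regions was 83.5%.

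The cells came from CBA x C57BL/6 F1 mice 21 days old. The protocol text describes 5 IU of equine chorionic gonadotropin (eCG) to drive follicle growth, then 5 IU of hCG 46 h later in place of the natural luteinising hormone surge. The 0 h group holds 2 RUNX1 libraries of cells labelled pre-ovulatory and the 6 h group 2 libraries of cells labelled peri-ovulatory, all read as single ends of 75 nt. Both groups share the strain and age, and 1 pooled input served both libraries of a time point. The same protocol text stands on all samples and covers collection at 6 h alone, and the 0 h libraries are known from their titles and time-point label. Nothing in the labels says how many animals gave a library or whether the 2 libraries came from separate animals, so the spread between them may be technical. Peak lists hold no expression values, so the labelled cell type was not checked against markers.

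Granulosa cells surround the oocyte in the follicle, respond to the luteinising hormone surge and become the luteal cells that make progesterone. RUNX1 is a DNA-binding transcription factor that pairs with CBFB, reads the short word TGTGGT or TGCGGT, and recruits coactivators or corepressors such as the TLE proteins. Factors of this kind often bind DNA between genes, at enhancers, and the nearest gene is only a guess at the gene an enhancer serves.

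The DNA sequence under the members was not analysed here. What can be shown is the start-site sequence of nearby genes that carry members and also had a 6 h summit at the start itself. The RefSeq promoter table (GRCm38.p6) was searched for TGTGGT and TGCGGT on both strands in windows of 300 bases, from 250 before to 50 after a start. Among genes in the gene lists used below, those with 4 or more members and those of the 12 highest members, 4 had a 6 h summit in such a window and a hexamer before the start. The 250 bases before the start are given 5′ to 3′ along the gene, with the hexamers in capitals. All 4 genes lie on the minus strand.
F2r, chr13:95618467-95618716: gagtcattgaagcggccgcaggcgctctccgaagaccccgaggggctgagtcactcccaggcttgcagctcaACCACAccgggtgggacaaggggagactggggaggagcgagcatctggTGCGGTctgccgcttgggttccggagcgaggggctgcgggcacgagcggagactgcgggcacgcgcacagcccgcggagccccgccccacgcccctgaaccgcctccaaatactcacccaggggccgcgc
Foxp1, chr6:99520994-99521243: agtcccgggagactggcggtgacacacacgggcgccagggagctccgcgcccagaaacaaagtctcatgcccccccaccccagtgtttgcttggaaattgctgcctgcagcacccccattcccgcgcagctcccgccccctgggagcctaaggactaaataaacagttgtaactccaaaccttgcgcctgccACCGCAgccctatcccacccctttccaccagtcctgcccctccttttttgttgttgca
Ezh1, chr11:101226464-101226713: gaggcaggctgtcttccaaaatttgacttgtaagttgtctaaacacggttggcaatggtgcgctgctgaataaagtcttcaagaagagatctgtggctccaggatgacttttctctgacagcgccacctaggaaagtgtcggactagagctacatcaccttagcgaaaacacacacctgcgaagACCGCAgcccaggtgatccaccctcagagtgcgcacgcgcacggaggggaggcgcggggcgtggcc
Dhx40, chr11:86807661-86807910: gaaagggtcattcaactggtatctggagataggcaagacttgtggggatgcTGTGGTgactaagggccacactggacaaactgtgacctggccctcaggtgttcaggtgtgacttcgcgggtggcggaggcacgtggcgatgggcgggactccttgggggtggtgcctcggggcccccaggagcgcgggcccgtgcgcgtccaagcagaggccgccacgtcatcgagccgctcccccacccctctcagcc
In F2r, which encodes a thrombin receptor, the 6 h summit fell at base 125, inside the hexamer that starts at base 121. The start-site region had a fold of 54.3 and 74.5 in 6 h replicates 1 and 2. In Foxp1, a forkhead transcription factor, the summit at base 186 was 7 bases from the hexamer at base 193, with a fold of 10.4 and 24.3. The gap was 47 bases in Ezh1, a histone methyltransferase, and 134 bases in Dhx40. None of the 4 start-site regions overlapped a 0 h peak. The 4 genes were picked by these criteria after their values were seen.

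Over all 21263 promoter windows of protein-coding genes 21.6% held such a hexamer, and 18.2% held a 6 h summit. Of the 1269 windows of genes nearest to a member, 20.3% (95% CI 18.1 to 22.6) held a hexamer, so these starts were close to the rest. Windows with a 6 h summit held one in 28.2% (95% CI 26.8 to 29.6) of 3870 cases. Those that also belonged to a gene nearest to a member, the class of the 4 printed, held one in 24.1% (95% CI 19.6 to 29.2) of 323. A hexamer in these windows is a match of letters and not a bound site.

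A second set of sequences comes from microRNAs, short RNAs that pair with messenger RNAs mainly through bases 2 to 8, the seed. For 9 members the nearest annotated gene of any kind was a microRNA gene, and 19 members lay within 10 kb of 18 hairpins of the RefSeq microRNA table. The first count is 0.57% of the members. Neither count was set against other 6 h regions or the full number of hairpins, so they show no excess near microRNA genes. A stretch of chromosome 8 held 3 of the 9. There, a member at 84202988 to 84204280 lay 4827 bp from Mir23a, 4981 bp from Mir27a and 5124 bp from Mir24-2. Its fold was 12.7 in replicate 1 and 19.6 in replicate 2, and its nearest coding gene was Zswim4. A neighbour at 84202453 to 84202786 had 3.84 and 4.96. Another at 84192021 to 84193006, nearest to Nanos3 among coding genes and 13239 bp from Mir181c, had 5.17 and 7.02. Sequences of the main arms of this cluster, and of the microRNA gene nearest to a member, are given 5′ to 3′ from RefSeq (GRCm38.p6) with the seed in capitals.
mmu-miR-23a-3p: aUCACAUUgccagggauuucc
mmu-miR-27a-3p: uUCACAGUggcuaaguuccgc
mmu-miR-24-3p: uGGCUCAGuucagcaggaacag
mmu-miR-6347: cAGUGCGGcuggcuggagaugc
The 4 seeds are all different. Mir6347 lay 1285 bp from a member on chromosome 1 at 167288641 to 167289436, with a fold of 14.3 and 37.0 and a pileup of 71 and 128 reads. Other microRNA genes were nearby as well. Mir26b lay 4159 bp from a member with a fold of 9.62 and 15.2, and Mir34a had 2 members within 10 kb, the nearer with 4.78 and 7.76.

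Fold enrichment is the read pileup at the summit over the local background, each with a pseudocount of 1, as the authors' peak caller gave it. It depends on the depth and input of a list, so values of different libraries are read as ranks within each list. Because the rule was applied to these lists, fold, rank and width of the members are a description and carry no test. The fold of the members ran from 1.75 to 52.1 in 6 h replicate 1, with a median of 8.67, and from 1.98 to 75.6 in replicate 2, with a median of 15.2. It was higher in replicate 2 at 1519 of the 1580 members, by a median of 1.72 times. Narrow 6 h-only regions in the other positions also had a higher median fold in replicate 2. The pileup of the members had a median of 44 and 64 reads. The replicates placed the summits close together, with a median gap of 26 bp, and 74.8% (95% CI 72.6 to 76.9) lay within 50 bp of each other. Across members the fold of the 2 replicates had a Spearman rho of 0.80, over 1580 points that share libraries and input. All but 34 members held a single peak in each list.

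**Figure D1:**
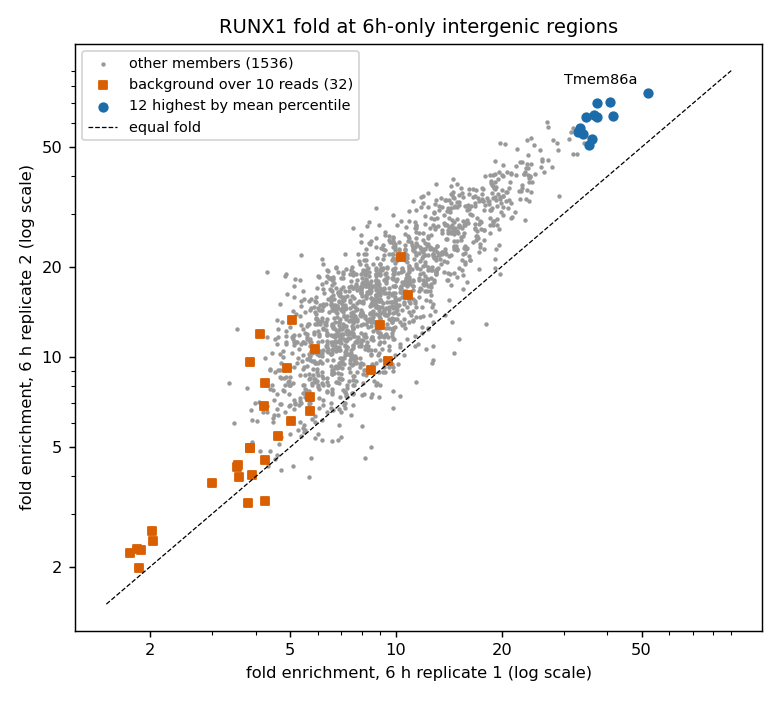
Fold enrichment of the 1580 members in 6 h replicate 1 (x axis) and replicate 2 (y axis), both log scales. Each point is a region, blue points are the 12 with the highest mean percentile, orange squares the 32 with a background over 10 reads in a list. The points lie mostly above the line of equal fold, and Tmem86a marks the highest region, with 52.1 and 75.6.

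The members stood near the middle of the list of replicate 1 and higher in that of replicate 2. Their median percentile of fold was 50.7 in replicate 1 and 73.1 in replicate 2. Other narrow 6 h-only regions shifted the same way, from 45.2 to 56.0 at gene ends, 48.2 to 68.8 inside genes and 54.1 to 78.8 beyond 50 kb. Intergenic regions to 50 kb with a 0 h peak went from 87.6 to 92.1. For the members the median of the mean over both lists was 60.2. The 4928 narrow 6 h-only regions inside genes had a median of 57.2, the 7030 at gene ends 49.7 and the 739 intergenic ones beyond 50 kb 64.6. Intergenic regions of the same distance class that did overlap a 0 h peak, 264 in number, had a median of 88.9. Their median fold was 16.3 and 27.0 and their median width 812 bp, against 495 bp for the members. The upper end of the members reached far into that range, since 178 of them, or 11.3% (95% CI 9.75 to 12.9), had a mean percentile above 90. Overlap with a 0 h peak was missing for 85.7% of the narrow replicated regions in these positions. The share was 86.9% inside genes, 87.1% beyond 50 kb and 81.8% at gene ends.

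Absence from the 0 h lists is a limit and not a zero. The smallest pileup called at 0 h was 20 reads in replicate 1 and 19 in replicate 2, where the genome-wide background was 2.77 and 2.65 reads. The 6 h libraries had a background of 2.76 and 2.13 reads. At 6 h, 1578 of the 1580 members had at least 20 reads in both libraries, and 927, or 58.7% (95% CI 56.2 to 61.1), had at least 2 times that number. The other members had 6 h pileups nearer to the level that the 0 h lists could call. The median distance from a member to the nearest 0 h summit was 94060 bp, and 195 members had one within 10 kb.

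The 12 highest members by mean percentile lay near genes of several kinds. The first, on chromosome 7 at 47030683 to 47031832, lay 19138 bp before the start of Tmem86a and had a fold of 52.1 and 75.6, from pileups of 195 and 236 reads. The next lay 22440 bp before the start of Tle4, on chromosome 19 at 14620300 to 14620908, with a fold of 40.7 and 70.5. Tle4 encodes a corepressor of the Groucho family that binds RUNX proteins. A region 43887 bp before Map4k3, a protein kinase gene, had 41.5 and 63.5. A region 41639 bp from Gramd1b, whose product moves cholesterol from the plasma membrane, had 37.2 and 70.5. Both replicates placed these 4 above percentile 99 of their lists.

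Among the remaining 8 the fold lay between 32.9 and 37.3 in replicate 1 and between 50.8 and 63.8 in replicate 2. Pik3r1, the regulatory subunit of phosphoinositide 3-kinase, had its member 22588 bp past the gene end, on chromosome 13 at 101657592 to 101658619. Kl encodes klotho, a coreceptor for a fibroblast growth factor, and had its member 6964 bp past the end. The others were nearest to Yae1d1, Tspan5, Pth, Foxd1, Gm46353 and Mgl2. Foxd1 and Yae1d1 lie on chromosome 13 as well, at distances of 34674 and 10626 bp.

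At the lower end 58 members had a mean percentile under 10. The lowest 3 lay near Mrgprd, Tmem196 and Tcstv3, with a fold of 1.75 to 1.86 in replicate 1 and 1.98 to 2.29 in replicate 2. Their pileups were high, 217 to 382 reads in replicate 1, and so were their backgrounds, 117 to 208 reads in the same library. In all, 32 members had a background over 10 reads in a list, and their median mean percentile was 3.02. Whether such stretches are repeated sequence was not tested. Chromosome Y held 4 members, 1 of them among these 32, with a fold of 4.71 to 9.02 and 8.48 to 12.1, although granulosa cells are female cells. The lists held 15 and 28 peaks on that chromosome at 6 h and 0 at 0 h. The chromosome Y members nearest to Gm52481 all lay between 90749103 and 90784121, and the one nearest to Gm21241 at 43920516 to 43920886. How reads came to be placed at either stretch was not tested.

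At the edges of the rule, the member farthest from a coding gene lay 49730 bp from Ripk2, with a fold of 9.25 and 16.9. Just outside, 50369 bp from Nr5a2, a region on chromosome 1 at 137010389 to 137011249 had 34.6 and 63.2, a fold that would have placed it among the highest members. The member nearest to a gene end was 1003 bp from Zfp809, with 7.18 and 16.6, and the region just inside 1 kb was 995 bp from Klf2, with 9.85 and 21.2. The widest member, of 1980 bp near Zc3h12c, had 26.1 and 44.8. The narrowest region left out for its width, 2028 bp near Nptn, had 11.6 and 24.97. Only 7 regions in these positions were left out for width.

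The position of the members relative to genes was set against the intergenic space open to them, that is all positions on the named chromosomes that meet the distance limits. This space came to 512 Mb and held 3.09 members per Mb (95% CI 2.94 to 3.24, exact Poisson, counting error only). Density fell with distance from the coding gene end. It was 4.09 per Mb (95% CI 3.70 to 4.52) at 1 to 5 kb, 3.51 at 5 to 10 kb, 3.19 at 10 to 20 kb and 2.35 (95% CI 2.14 to 2.57) at 20 to 50 kb. The first was 1.74 times the last, and their intervals did not overlap. Intergenic regions with a 0 h peak fell in the same way, with 0.684, 0.676, 0.507 and 0.369 per Mb. The fall is thus not particular to the members. The fold of the members did not follow this order, since their median mean percentile was 59.5, 61.5, 56.1 and 62.5 in the 4 bins. The members with the nearest gene ends and those farthest away thus had similar ranks.

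Both sides of the genes had similar densities. Strand was known for the nearest coding gene of 1247 members, of which 674 lay before the gene start and 573 past the gene end. Per Mb of space this was 3.14 (95% CI 2.91 to 3.39) before the start and 3.01 (95% CI 2.77 to 3.27) past the end. The intervals overlap over most of their length. For 943 members, or 59.7%, the nearest gene of any kind was the coding gene, while for 417, or 26.4%, it was a long noncoding RNA gene.

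**Figure D2:**
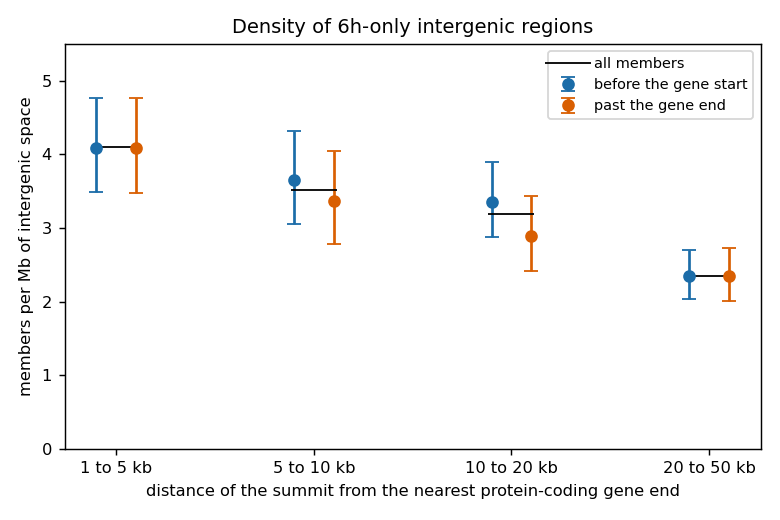
Members per Mb of open intergenic space (y axis) by distance from the nearest protein-coding gene end (x axis). Points are the sides before the gene start (blue) and past the gene end (orange), bars are exact 95% Poisson intervals, and black lines are all members. Both sides fall from about the same level at 1 to 5 kb, 4.09 and 4.08, to 2.35 at 20 to 50 kb.

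Chromosomes differed. The 19 autosomes held between 2.38 members per Mb on chromosome 7 and 5.82 on chromosome 11, and 3.44 together. Chromosome X held 33 members at 0.817 per Mb (95% CI 0.562 to 1.15), so the autosomal density was 4.21 times as high. Intergenic regions with a 0 h peak were also sparse on X, 2 in all. Some members lay close to others, although the shares below were not computed for other 6 h regions and show no excess. Another member lay within 10 kb of 443 of them, or 28.0% (95% CI 25.8 to 30.3), and 758, or 48.0%, had some other replicated 6 h region within that distance.

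The members were assigned to the protein-coding gene with the nearest end. This named 1257 of 21900 coding genes, or 5.74%, and 6.62% of the 18993 genes with any open space beside them. The share of all coding genes was 0.233% with lists of equal length and 10.6% without 6 h replicate 1. Most had 1 member, while 242 genes had 2 or more and 18 had 4 or more. Genes with a member also had RUNX1 elsewhere. A replicated 6 h region lay within 1 kb of an end in 54.1% (95% CI 51.3 to 56.9) of them, against 37.2% of all coding genes. A region inside the gene, over 1 kb from both ends, was present in 32.3% (95% CI 29.7 to 35.0), against 15.8% of all. Gene length, spacing and activity were not matched in these shares. For 402 of the 1257 genes no region was found at an end or inside.

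Only 3 genes had more than 4 members, and 15 had 4. Those 3, and the 3 of the 15 whose best member had the highest percentile, had different layouts. Spsb1, which encodes a SOCS-box protein, had 6, of which 5 lay 32553 to 47121 bp past the gene end and 1 lay 2174 bp before the start. Their fold ran from 6.87 to 12.4 in replicate 1 and from 11.3 to 20.8 in replicate 2. Abhd2, a lipid hydrolase gene, had 5 members, all 3157 to 18837 bp before its start, the highest on chromosome 7 at 79262235 to 79263146 with 19.2 and 38.4. Arrdc3, an arrestin-domain gene, had 1 before the start and 4 past the end, the highest 25081 bp past it with 20.1 and 31.7. Cks2 encodes a small protein that binds cyclin-dependent kinases, and its 4 members lay within 3.76 kb of each other. By mean percentile, the highest of the 4 had 23.9 and 33.2 and the lowest 6.53 and 7.04. The highest member of Tpt1, 19845 bp past the gene end, had 24.3 and 44.0, while the 3 before the start had 7.02 to 7.97 and 9.90 to 17.3. Gm46353, a gene model on chromosome 12, had 3 members before the start and 1 past the end.

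**Figure D3:**
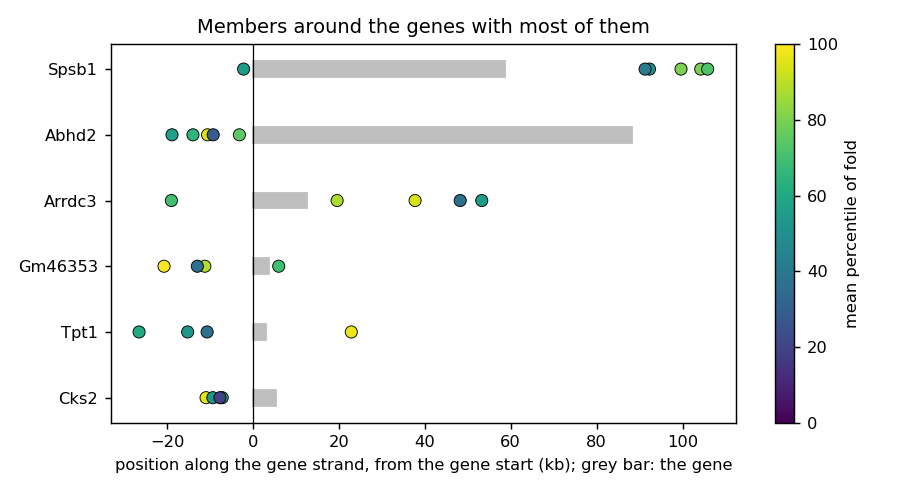
Positions of members around the 3 genes with more than 4 of them and 3 of the 15 genes with 4, chosen by their best percentile, along the gene strand in kb from the gene start (x axis), with the gene as a grey bar. Each point is a member and its colour the mean percentile of fold. The 5 Abhd2 members all lie before the start, and 5 of the 6 Spsb1 members lie past the end.

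F2r, one of the 15 genes with 4 members, combined them with the start-site region shown above. All 4 lay past the gene end on chromosome 13, between 6184 and 16724 bp from it. The farthest, at 95584641 to 95585462, had a fold of 16.1 and 31.1, and the others had 14.9 and 28.9, 9.60 and 24.1, and 9.31 and 8.94. The start-site region was higher than any of them in both replicates.

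Gene lists of the ovary were read against the 5.74% of all coding genes. They were chosen with earlier results of these data known, and a gene's share does not account for the space beside it. Of the 366 genes in 20 lists 77 had a member, or 21.0% (95% CI 16.97 to 25.6). The lists differ in size and overlap, and no test was made of any of them. Per Mb of open space beside the genes the order was another one. AP-1 and C/EBP genes had 24.7 members (95% CI 12.3 to 44.2) and steroid genes 16.1 (95% CI 6.47 to 33.2). The transforming growth factor beta superfamily had 13.3, and the RUNX family and partners had 11.9 (95% CI 4.35 to 25.8). The ovulatory response followed with 11.1 (95% CI 5.54 to 19.8). The intervals given for these lists overlap, so the order among them is not settled. Granulosa identity genes had 4.25 (95% CI 1.16 to 10.9) and ribosomal protein genes 10.8 (95% CI 2.24 to 31.7), against 3.09 for all members.

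**Figure D4:**
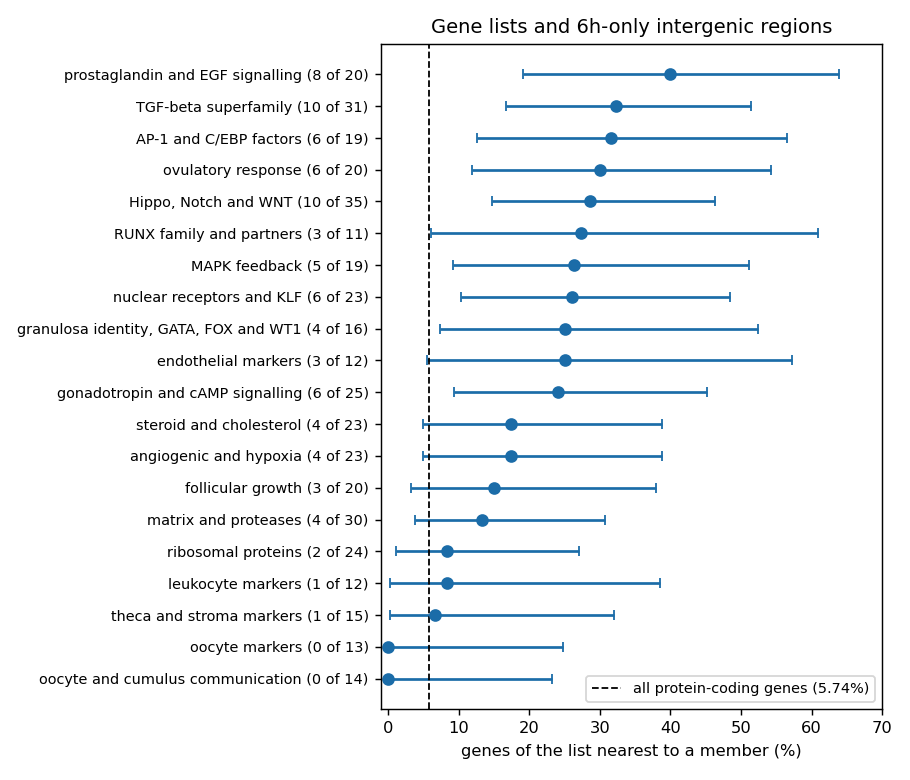
Share of the genes of each list that are nearest to a member (x axis, percent), with the count in brackets. Points are lists, bars exact 95% binomial intervals, and the dashed line the 5.74% of all protein-coding genes. Prostaglandin and EGF genes are highest, at 8 of 20, and both oocyte lists have 0.

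Of 20 genes of the ovulatory response 6 had a member, or 30.0% (95% CI 11.9 to 54.3), and these 6 had 11 members with a median mean percentile of 40.6 against 60.2 for all. Tnfaip6, whose product crosslinks the hyaluronan matrix of the cumulus, had a member 8006 bp past its end, on chromosome 2 at 52064511 to 52064902, with 10.6 and 21.4. Pgr, the progesterone receptor, had one 3482 bp before its start with 9.73 and 13.1 and 40 reads in each library. Ptgs2, the inducible enzyme of prostaglandin synthesis, had one 43301 bp past its end on chromosome 1 at 150151375 to 150151718. It stood apart between the libraries, with 5.38 at percentile 10.2 and 21.8 at percentile 87.3. Edn2, an endothelin made at ovulation, had one 10489 bp before its start with 5.99 and 13.1.

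Runx1 itself had 3 members outside the gene. The one 16254 bp before its start, on chromosome 16 at 92842091 to 92842490, had 10.7 and 17.5. Those 19435 and 22234 bp past its end had 5.65 and 7.71, and 6.71 and 11.3. Cebpb, a transcription factor gene needed for luteinisation, had 4 members 16364 to 27458 bp past its end. All were modest, with 4.85 to 7.81 and 6.55 to 11.7.

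Of 19 AP-1 and C/EBP genes 6 had a member, or 31.6% (95% CI 12.6 to 56.6), and 16 of the 19 had a 6 h region at a gene end. AP-1 factors are dimers of FOS and JUN proteins that respond fast to signals. Fos had 2 members before its start, of which the one at 5058 bp had 17.03 and 26.2 and the one at 11457 bp had 4.17 and 8.26. Jund had 2 members 1147 and 2166 bp before its start with 10.6 and 17.4, and 7.48 and 9.37. Junb had one with 7.27 and 8.04, Fosl1 one with 5.71 and 7.33 and Cebpa one with 5.74 and 11.2. The median mean percentile of the 11 members was 33.9, so apart from the nearer members of Fos and of Jund they ranked below the middle of the members.

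Of 23 nuclear receptor and KLF genes 6 had a member, or 26.1%. The member of Nr5a2, an orphan receptor needed for ovulation, lay 16742 bp past its end with 12.2 and 17.5. Nr3c1, the glucocorticoid receptor, had one at 3994 bp with 11.0 and 17.6. Klf6 had 2, with 9.84 and 17.2, and 7.45 and 13.7, and Nr4a1 had one 5732 bp before its start with 6.06 and 10.1. Rxra, the partner of many nuclear receptors, had one with 5.47 and 9.26.

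Of 11 genes of the RUNX family and its partners 3 had a member. Tle3, like Tle4 a corepressor, had 2 before its start, with 9.87 and 14.7 at 34544 bp and 7.72 and 17.3 at 8901 bp. Runx2, Runx3 and Cbfb had none, but each had a 6 h region at a gene end or inside the gene. Among 16 genes of granulosa identity 4 had one. The member of Foxo3, a forkhead factor of follicle growth, had 15.3 and 24.6, and that of Foxp1, 17499 bp before its start, had 12.7 and 23.0. Lhx2 and Gata6 had 8.43 and 16.3, and 7.72 and 17.5.

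Follicular growth and steroid genes gave 3 of 20 and 4 of 23. Lhcgr, the receptor for luteinising hormone and hCG, had 3 members before its start on chromosome 17. The one at 88822915 to 88823541, 31106 bp away, had 20.7 and 35.5, at percentiles 93.5 and 96.4. The others had 10.2 and 13.9 at 48202 bp, and 7.59 and 8.04 at 13290 bp. Star, which carries cholesterol into mitochondria, had one 2125 bp from the gene on chromosome 8 at 25806083 to 25806673, with 12.4 and 23.7. Fdx1, which passes electrons to the side-chain cleavage enzyme, had 4 members, the highest with 14.6 and 23.4 and the lowest with 4.98 and 8.04. Abca1, a cholesterol exporter, had 5.497 and 11.2. Fshr, Cyp19a1, Cyp11a1 and Foxl2 had no member, although Cyp19a1, Cyp11a1 and Foxl2 each had a replicated 6 h region inside the gene.

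Of 25 genes of gonadotropin and cyclic AMP signalling 6 had a member. Rgs2, a brake on G-protein signalling, had one 2584 bp before its start on chromosome 1 at 144006331 to 144007180. Its fold was 19.0 and 28.4, from pileups of 186 and 221 reads. Akap13, an anchor of protein kinase A, had 2 members past its end with 11.4 and 31.0, and 6.86 and 11.9. Adcy9, an adenylyl cyclase, had 9.27 and 21.9. The phosphodiesterase genes Pde4b and Pde10a had 5.67 and 12.9, and 6.02 and 13.2.

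Of 20 prostaglandin and epidermal growth factor (EGF) genes 8 had a member (95% CI of the share 19.1% to 63.9%). Besides Ptgs2 these covered synthesis, breakdown, transport and receptors. Hpgd, which inactivates prostaglandins, had a member 16229 bp before its start with 19.7 and 23.6. Ptgs1, the constitutive enzyme, had 12.3 and 25.3. Slco2a1, a prostaglandin transporter, had 6.03 and 10.2. Ptgfr, the receptor of prostaglandin F2-alpha, had 5.15 and 18.2, at percentiles 8.31 and 81.4. Egfr, the receptor of the EGF-like ligands, had one 2292 bp past its end with 11.2 and 22.7. Its inhibitors had members too, Lrig1 with 18.3 and 32.2 and with 9.96 and 14.6, and Errfi1 with 5.71 and 11.4. None of the ligand genes Areg, Ereg, Btc, Hbegf and Tgfa had a member. Of these ligand genes only Tgfa had a 6 h region at a gene end or inside.

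Of 31 genes of the transforming growth factor beta superfamily 10 had a member, or 32.3% (95% CI 16.7 to 51.4), with 15 members in all. Most were intracellular. Id1, Id2 and Id3, inhibitors of basic helix-loop-helix factors and targets of bone morphogenetic proteins, had 2, 3 and 2 members. The 3 of Id2 lay 1740 to 3866 bp before its start with 8.77 and 16.1, 11.4 and 8.23, and 18.1 and 12.9. Those of Id1 had 8.26 and 27.3, and 7.56 and 13.1, and those of Id3 were low, with 3.77 and 7.88, and 5.47 and 5.95. Smad3, a signal transducer, had 8.03 and 5.87, and Smad2 5.58 and 11.95. The inhibitory Smad6 had 7.50 and 7.57, and Smad7 had 2 members with 7.90 and 9.50, and 5.71 and 10.1. Ligand and receptor genes were fewer, with Bmp4 at 9.31 and 26.2, Inhbb at 6.78 and 14.4 and Tgfbr1 at 9.17 and 8.89.

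Feedback genes of the MAP kinase pathway had a member in 5 of 19 cases. Dusp6, a phosphatase that turns off ERK, had 20.9 and 31.3 at 7242 bp past its end and a second member with 4.38 and 7.82. Dusp5 had 9.97 and 23.8, Spred2 11.9 and 22.6 and Ier3 12.1 and 21.8. Ier2 had 6.64 and 6.66. Of 30 matrix and protease genes 4 had one, including Ctsl, a lysosomal protease known as a progesterone-dependent gene of ovulation. Its member lay 19706 bp before its start, on chromosome 13 at 64390158 to 64390834, with 23.7 and 53.0. Lox, a collagen crosslinking enzyme, had 12.4 and 35.1, and Plau, a plasminogen activator, had 2 with 8.998 and 12.8, and 6.78 and 10.8.

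Of 35 Hippo, Notch and WNT genes 10 had a member, or 28.6% (95% CI 14.6 to 46.3). Hes1, a Notch target and repressor, had 19.7 and 34.0 at 22907 bp and a second with 6.58 and 9.02. Notch1 had 18.5 and 25.8 at 28156 bp before its start. Tead1, a Hippo pathway factor, had 9.76 and 13.1, and the matricellular genes Ccn1 and Ccn2 had 8.08 and 11.4, and 8.51 and 10.2. Dll4 and Jag2, Notch ligands, had 8.25 and 10.7, and 6.04 and 14.4. Notch3, Tead4 and Tcf7l1 lay lower, at mean percentiles of 11.7, 14.8 and 29.6. Of 23 angiogenic and hypoxia genes 4 had one. Ednra, an endothelin receptor, had 15.1 and 32.9 at 48360 bp and Edn1 13.1 and 23.5 at 42727 bp. Egln1, an oxygen sensor, had 7.97 and 11.0. Vegfa had no member, but it had 6 h regions at a gene end and inside.

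Lists of other cell types and of housekeeping genes were read the same way. The 14 genes of oocyte and cumulus communication and the 13 oocyte genes had 0, with upper 95% limits of 23.2% and 24.7%. At a gene end, 7 of the 14 and 1 of the 13 had a 6 h region. Markers of endothelial cells, leukocytes, theca and stroma, and oocytes together had 5 of 52, or 9.62% (95% CI 3.20 to 21.0). They included 3 of 12 endothelial markers (Emcn, Vwf and Pecam1) and 1 of 15 markers of theca and stroma (Ptch1). The endothelial share was thus as high as that of the granulosa identity genes, 4 of 16, and the part of such cells in the libraries was not tested. Emcn, an endothelial surface protein, had 8.24 and 23.0, and Pecam1 6.97 and 6.56. Of 24 ribosomal protein genes 2 had a member, Rps14 and Rpl11, although 20 of the 24 had a 6 h region at a gene end.

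The share of each list in these positions was compared between time points over libraries. Of all peaks, with or without a partner in another list, 15.3% (95% CI 13.1 to 17.7) of 948 in 0 h replicate 1 and 10.4% (95% CI 9.35 to 11.5) of 3135 in 0 h replicate 2 lay there. At 6 h it was 10.6% (95% CI 10.2 to 11.0) of 18761 and 12.6% (95% CI 12.2 to 13.0) of 28671. The groups overlap, since both 6 h values lie between the 0 h values. The 0 h libraries averaged 12.8% ± 3.46 and the 6 h libraries 11.6% ± 1.42 (SD, n = 2 per time point). The time points thus differed by -1.25 percentage points, less than the 0 h libraries differed from each other. A two-sided exact permutation test gave p = 1, where 0.333 is the smallest p that 4 libraries allow. Without 0 h replicate 1 it was 1.20 percentage points, and with all lists kept but shortened to an equal number of peaks it was 0.738, so its sign depends on both choices. With only peaks of a −log10 q of at least 20 it was -4.80 percentage points, with the smallest possible p of 0.333 in the exact permutation test.

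**Figure D5:**
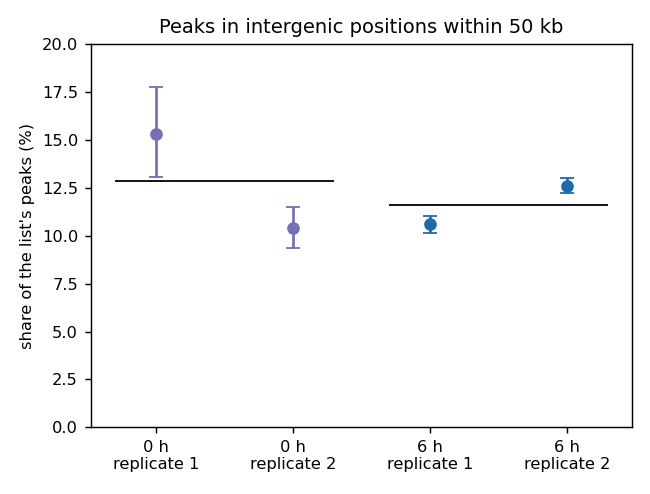
Share of each list's peaks in intergenic positions within 50 kb of a coding gene end (y axis, percent) for the 4 libraries (x axis). Points are libraries, bars exact 95% binomial intervals, and horizontal lines the group means. The 6 h values of 10.6% and 12.6% lie between the 0 h values of 10.4% and 15.3%.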

How the data were processed

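RUNX1 ChIP-seq of 4 libraries was used, as 1 peak list each. Per the submitters' processing notes the authors used Bowtie2 2.2.5 and MACS2 with build mm10 (GRCm38). Settings are not given in the sources used here. The deposited columns used are the fold (a ratio over local background), the −log10 p and the −log10 q of each peak. The deposited score, 10 times the −log10 p rounded down, was not used. Sequencing depth was not stated. Pileup and background were solved from fold and −log10 p (Poisson, misfit at most 0.005), which worked for 100% of peaks in each list.

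Peaks sharing at least 1 bp were merged. Positions are counted from 1, and gene ends are those of RefSeq GRCm38.p6. That table has no strand, so strand came from the RefSeq promoter table, by gene ID, for the nearest coding gene of 78.9% of the members. Open space was counted on a grid of 100 bp. Binomial intervals are exact (Clopper-Pearson, 95%) and cover counting error only. Python 3.11.15, numpy 2.4.6, pandas 2.3.3 and scipy 1.17.1 were used, and the solver and the rule were tested on simulated data. The sequence of the members was not used here, so the planned count of RUNX hexamers at their summits was not run.

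The members and lists were chosen with earlier results of these data known. Regions named are the 12 highest by mean percentile, up to 3 per list, those of the 6 genes with most members (ties by the best percentile), the lowest 3 and those at the edges of the rule. Further members of list genes, those near microRNA genes, on chromosome Y or beside the printed promoters were named after their values were seen. Some genes counted in the lists are not reported here by name. Replicate numbers do not pair the samples in the labels. The alternatives tried were other thresholds, overlaps, distances and gene sets, equal list lengths and leaving out each library.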

Additional observations from a re-analysis of the deposited data

How the results depend on the processing

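The median percentile of the members moved by less than 1 SD of the 2 replicates' medians in 15 of 15 alternatives, which ran from 48.2 to 63.9. Those medians were 50.7 and 73.1, so this limit is wide and says little about stability. Without 6 h replicate 1 or 2 the median percentile was 49.5 and 48.2, each from 1 list and not a mean over both. The member count stayed within 1.5 times of 1580 in 11 of 13, and so did the share of coding genes with a member (5.74%). The exceptions were equal list lengths of 948 peaks, with 52 regions and 0.233% of genes, and the setting without 6 h replicate 1. Leaving out each library in turn gave 1586 to 3308 regions and 5.75% to 10.6% of genes, the highest without 6 h replicate 1, when single peaks of replicate 2 stand for regions. The share of peaks in these positions, 6 h minus 0 h, was -1.25 percentage points. It was 0.738 with equal list lengths and, with each library left out, between -3.70 and 1.20, the first lacking 0 h replicate 2 and the other 0 h replicate 1. It was -4.80, with an exact permutation p of 0.333, when the −log10 q had to reach 20. The cause of these moves and reversals was not tested. With the replicate block the difference was again -1.25 percentage points, from -4.70 for the pair numbered 1 and 2.21 for the pair numbered 2. The settings without chromosome Y (1576 regions) and with a background of at most 10 reads (1548 regions) were chosen after seeing the data. Counts of the RUNX hexamer at member summits, and their other settings, were not run. No list held a pileup under 17 reads, and neither 0 h list one under 19, so weaker binding is not seen at either time.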
